A study of Mus musculus with 12 samples.

Results

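Ppp1r15a lies on mouse chromosome 7 among other protein-coding genes, and the 10 of them described here are Lin7b, Snrnp70, Ruvbl2, Gys1, Dhdh, Tulp2, Nucb1, Plekha4, Hsd17b14 and Bcat2. They are taken by gene symbol, so that every probe set annotated with 1 of the 10 symbols belongs to the group. This gives 21 probe sets of the 45101 on the array, and 10 genes of the 20753 measured. Ppp1r15a encodes GADD34, and the compared cells are labelled wildtype or knockout for it, which need not be their only difference. RNA was hybridised to 12 Affymetrix Mouse430_2 arrays, on which several short probes, a probe set, read 1 transcript. The cells were embryonic fibroblasts from embryos of 12.5 to 14.5 days, immortalised with the SV40 large T antigen, and were either wildtype (WT) or homozygous knockouts of GADD34 (KO). Every sample, WT included, carries the same strain label, which joins B6.129P2 and the allele Ppp1r15A tm1.1.Ajf/Mmnc with C57Bl/6. Each genotype was left untreated or given 0.1 mM sodium arsenite for 2 h, an agent that binds protein thiols. All 4 conditions were present in each of the 3 replicate experiments, so a group has 3 arrays. The labels do not say whether a genotype was 1 immortalised population or several, so p-values measure the spread between experiments with these cells.

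The genes do unrelated work. GADD34 is a regulatory subunit of protein phosphatase 1 that is made under stress and directs the phosphatase to phosphorylated eIF2-alpha, which restarts protein synthesis. Bcat2 is the mitochondrial aminotransferase that starts the breakdown of leucine, isoleucine and valine, and Gys1 is the glycogen synthase of muscle and most other tissues. Nucb1, nucleobindin, is a calcium-binding protein of the Golgi. Snrnp70 is a protein of the U1 particle that recognises 5' splice sites, and Ruvbl2 is an ATPase that works with Ruvbl1 in chromatin remodelling complexes. Genes next to each other on a chromosome can share promoter sequence when they are read in opposite directions from nearby start sites.

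Gene order here is the order of leftmost coordinates along chromosome 7, not of distance between genes. By it Nucb1, Tulp2 and Dhdh came first on one side of Ppp1r15a, followed after Bax and Ftl1 by Gys1 and Ruvbl2, 6 and 7 places away. In RefSeq 1 Tulp2 start site (45513706) nevertheless lies between those of Nucb1 (45510408) and Ppp1r15a (45526268). Snrnp70 and Lin7b were 11 and 12 places away on that side. Plekha4, Hsd17b14 and Bcat2 were the first 3 genes on the other side. RefSeq promoter windows (GRCm38.p6, 250 bases before to 50 after a start site) matched 8 of the 10 genes and Ppp1r15a, with 13 entries in all, and Hsd17b14 and Dhdh were not matched. The windows below are those of Ppp1r15a and Plekha4, because they overlap, and those of Nucb1 and Bcat2, 2 genes that differed between KO and WT cells in both conditions. They are Ppp1r15a on the minus strand (chr7:45526219-45526518), the first Plekha4 entry on the plus strand (chr7:45526080-45526379), Nucb1 on the minus strand (chr7:45510359-45510658) and the first Bcat2 entry on the plus strand (chr7:45569903-45570202). Capitals mark matches to the 7 motifs searched on both strands.
Ppp1r15a: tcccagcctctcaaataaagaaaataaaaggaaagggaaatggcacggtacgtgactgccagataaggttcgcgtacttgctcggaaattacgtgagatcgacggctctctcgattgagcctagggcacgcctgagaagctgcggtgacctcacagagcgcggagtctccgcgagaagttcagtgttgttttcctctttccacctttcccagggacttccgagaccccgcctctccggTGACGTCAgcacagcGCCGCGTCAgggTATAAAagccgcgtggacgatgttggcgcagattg
Plekha4: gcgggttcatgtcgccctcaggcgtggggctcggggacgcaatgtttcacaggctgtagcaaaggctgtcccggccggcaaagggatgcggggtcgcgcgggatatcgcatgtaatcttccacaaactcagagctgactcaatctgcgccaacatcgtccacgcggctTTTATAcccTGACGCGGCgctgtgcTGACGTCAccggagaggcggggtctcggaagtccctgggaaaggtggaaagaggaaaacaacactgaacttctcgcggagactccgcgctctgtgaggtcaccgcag
Nucb1: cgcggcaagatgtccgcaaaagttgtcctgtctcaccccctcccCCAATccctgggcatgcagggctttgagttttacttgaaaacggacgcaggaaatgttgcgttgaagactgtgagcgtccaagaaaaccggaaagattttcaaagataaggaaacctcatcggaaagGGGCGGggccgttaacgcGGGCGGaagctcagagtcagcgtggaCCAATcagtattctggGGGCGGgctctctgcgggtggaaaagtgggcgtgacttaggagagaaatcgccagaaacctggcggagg
Bcat2: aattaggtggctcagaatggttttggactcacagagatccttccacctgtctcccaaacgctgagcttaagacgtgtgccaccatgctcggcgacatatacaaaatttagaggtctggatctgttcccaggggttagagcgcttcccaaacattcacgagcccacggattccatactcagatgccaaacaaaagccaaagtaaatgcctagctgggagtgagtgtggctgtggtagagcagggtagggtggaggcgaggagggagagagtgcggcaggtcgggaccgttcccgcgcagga

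The start sites of Ppp1r15a and of the first Plekha4 entry were 62 bases apart and pointed away from each other. Their windows shared 161 bases, identical when one is read as the reverse complement of the other. Within the shared stretch stood the letters of a cAMP response element (TGACGTCA), a TATA box (TATAAA) and the antioxidant element (TGACNNNGC). In the Ppp1r15a window the TATA and antioxidant letters came after the annotated start site. In the Plekha4 window the TATA letters stood as their reverse complement. Of the 32851 RefSeq promoter windows, 1.79% held the cAMP response element, 13.6% the TATA box and 12.4% the antioxidant element. The Nucb1 window held 2 CCAAT boxes (CCAAT, in 37.4% of windows) and 3 GC boxes (GGGCGG, in 35.7%). Neither Bcat2 window held any of the motifs. No entry of the 13 held the heat shock letters GAANNTTC (in 7.86% of windows) or the C/EBP-ATF letters TGATGNAA (in 3.97%). Ruvbl2 and Gys1 formed a second head-to-head pair, with start sites 375 bases apart, 126 shared bases, and CCAAT and GC boxes in both windows. No match of 1 motif overlapped a match of another in the windows shown, and these matches describe letters, not binding.

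Signals are the deposited log2 intensities, in which a difference of 1 is a doubling. They are not calibrated between probe sets, so rankings of probe sets by level below, and sums over them, are rough descriptions. The targeted gene was read first. Ppp1r15a gave 8.45, 8.57 and 8.88 in untreated WT cells and 12.24, 12.25 and 11.60 under arsenite. The untreated KO arrays gave 6.42, 6.34 and 6.20, and those of KO cells under arsenite 6.27, 6.71 and 5.88. KO arrays lay below every WT array in both conditions, by -2.31 ± 0.22 untreated and -5.74 ± 0.22 under arsenite (log2 difference ± SE, limma with Benjamini-Hochberg adjustment, adjusted p = 2.84e-05 and 2.15e-08, n = 3 a group). Ppp1r15a rose by 3.40 ± 0.22 with arsenite in WT cells (adjusted p = 1.4e-05), and in KO cells the difference was -0.03 ± 0.22 (adjusted p = 0.950). KO signals remained above 5.34, the 40th percentile of all values, which is called the dim level here. The labels do not place this probe set relative to the deletion.

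Array medians ran from 5.92 to 5.96, and Pearson's r between arrays of 1 group, across probe sets that are not independent replicates, was 0.987 to 0.996. The median SD of a probe set within a group was 0.13 in both WT groups, 0.15 in untreated KO cells and 0.16 in KO cells under arsenite. Of 14 fibroblast markers, 11 lay above the dim level in all 4 groups, Fap in none, Lum in 1 group and Thy1 in the 2 WT groups. The 14 marker signals summed to between 130.8 and 150.9 on an array. Of the markers of other cells, the number above the dim level in all groups was 3 of 7 for epithelium, 1 of 6 for endothelium, 2 of 7 for blood, 5 of 6 for neural and glial cells, 3 of 5 for muscle and 1 of 5 for germ cells. Between untreated KO and WT cells 2 fibroblast markers were higher, Col1a2 by 4.32 (adjusted p = 1.92e-07) and Col5a1 by 0.68 (adjusted p = 0.0164). Another 2 were lower, Postn at -3.34 (adjusted p = 0.0325) and Thy1 at -2.18 (adjusted p = 9.57e-08). Of the other lists, Tubb3 was higher at 1.24 (adjusted p = 0.0195), and Kdr at -1.17 (adjusted p = 5.16e-05), Cd68 at -0.86 (adjusted p = 0.0385) and Krt18 at -0.54 (adjusted p = 0.0127) were lower. The part of these markers in the results below was not tested. In RNA from bulk cells, fewer cells of a type and less RNA per cell cannot be told apart.

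Of the 21 probe sets, 13 lay above the dim level in every group, 1 in 3 groups and 7 in none. Of the 10 genes, 8 had a probe set above it in every group, and Dhdh and Tulp2 had none in any group. Between untreated KO and WT cells, 2 of the 21 member probe sets passed the adjusted threshold of 0.05, against 16.0% of all 45037 tested. One was higher (Bcat2) and 1 lower (Nucb1), and 3 passed an unadjusted p under 0.05. Under arsenite 3 of 21 passed, against 17.0% of all, with Bcat2 and Dhdh higher and Nucb1 lower. In this fit, which had no replicate block, the members' shares, 9.52% and 14.3%, were thus near or below those over the array. The median KO minus WT difference over the 21 probe sets was 0.08 untreated and 0.19 under arsenite, beside -0.01 and 0.02 over all probe sets. The arrays of the 2 genotypes did not overlap for 4 members untreated, against 31.2% of all probe sets, and for 6 under arsenite, against 30.7%.

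**Figure D1:**
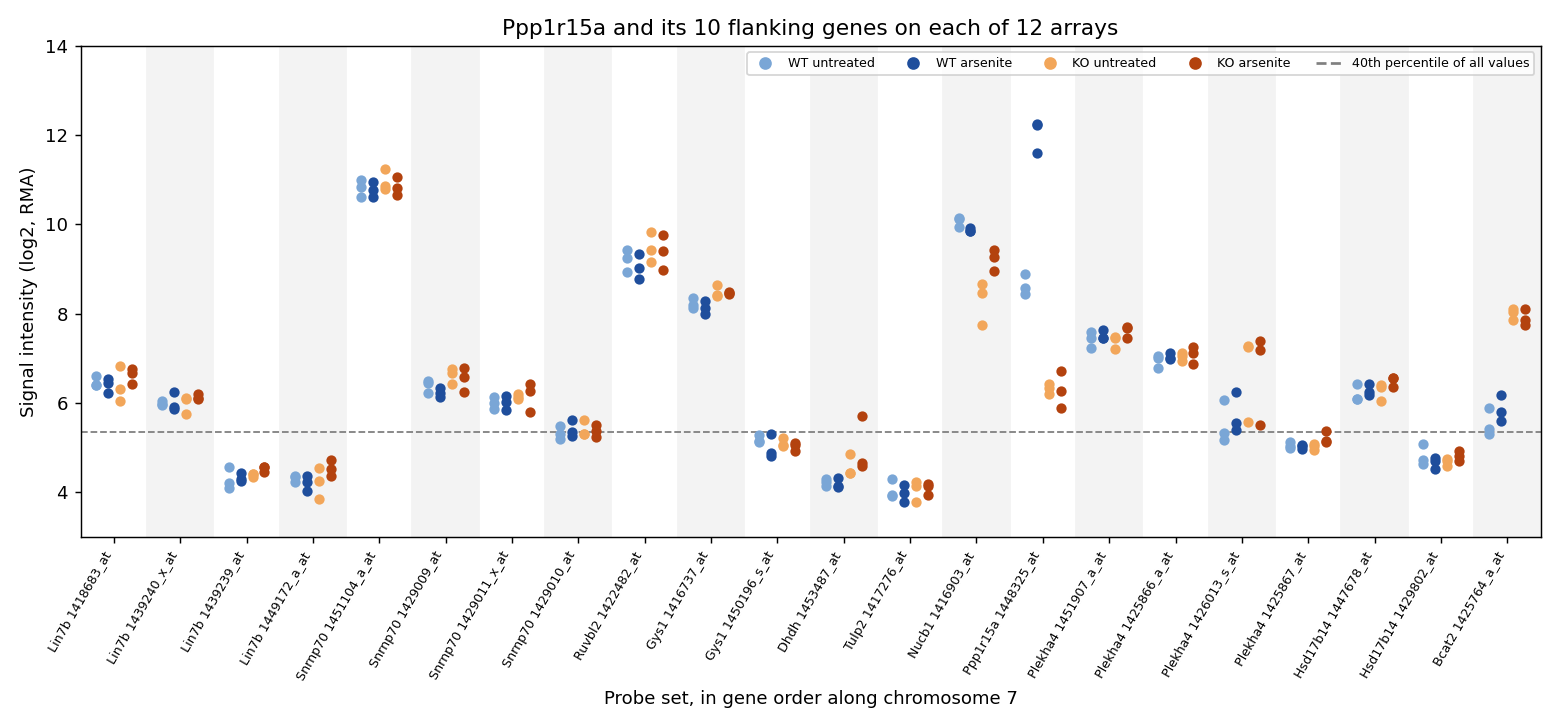
Log2 signal intensity of Ppp1r15a and the 21 probe sets of its flanking genes on each of the 12 arrays, in gene order along chromosome 7, with 1 point per array and colours for the 4 groups. The dashed line is the dim level of 5.34. Bcat2 sits higher in all 6 KO arrays and Nucb1 lower in all 6, while the points of most other probe sets intermingle.

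Nucb1 was the flanking gene that differed in both its genotype comparison and its arsenite response. Its probe set gave 10.13, 9.94 and 10.14 in untreated WT cells and 9.92, 9.86 and 9.85 in WT cells under arsenite. It gave 8.67, 7.75 and 8.46 in untreated KO cells and 9.42, 8.95 and 9.26 in KO cells under arsenite. All KO arrays were below all WT arrays, and within KO cells the treated arrays were above the untreated ones. In untreated cells the KO minus WT difference was -1.78 ± 0.20, a signal 3.43-fold lower (adjusted p = 9.59e-05, 95% interval -2.21 to -1.34). The differences within the 3 experiments were -1.46, -2.19 and -1.68. Under arsenite the difference was -0.66 ± 0.20 (1.59-fold lower, adjusted p = 0.0395). This call did not hold in 8 of the 12 fits that left out 1 array, those without any 1 of the 6 WT arrays or without KO arsenite replicate 2 or 3. The untreated WT arrays are not part of this comparison. Without any 1 of them the difference stayed -0.66, with adjusted p from 0.0519 to 0.056 by limma. With the replicate block the adjusted p was 0.00537. Without KO arsenite replicate 2 the difference was -0.53, with adjusted p = 0.131.

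With arsenite, Nucb1 rose by 0.92 ± 0.20 in KO cells, 1.89-fold (adjusted p = 0.0157), by 0.76, 1.20 and 0.80 in the 3 experiments. It was the sole member of 21 past the threshold, against 7.52% of all probe sets. Without KO arsenite replicate 1 the rise was 0.81, with adjusted p = 0.0666. In WT cells the change with arsenite was -0.19 ± 0.20 (adjusted p = 0.792), at -0.21, -0.09 and -0.29 by experiment. The treated WT arrays lay below the untreated ones without overlap, and 20.3% of all probe sets had no overlap in that comparison. The difference of the 2 responses was 1.11 ± 0.28, with an unadjusted p of 0.002 and an adjusted p of 0.380, so it did not pass. The group means ran in the order WT untreated (10.07 ± 0.11, SD), WT arsenite (9.88 ± 0.04), KO arsenite (9.21 ± 0.24) and KO untreated (8.29 ± 0.48). Of neighbours in that order, the 2 WT groups did not differ by the test, whereas WT arsenite differed from KO arsenite and KO arsenite from KO untreated.

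Bcat2 moved the other way. Its single probe set read 5.89, 5.30 and 5.42 in untreated WT cells and 5.80, 6.19 and 5.59 in WT cells under arsenite. In KO cells it read 7.86, 8.03 and 8.10 untreated and 7.85, 7.76 and 8.10 under arsenite. WT arrays lay between 5.30 and 6.19, around the dim level, and every KO array was above every WT array. The KO minus WT difference was 2.46 ± 0.18, 5.50-fold (adjusted p = 3.29e-06, 95% interval 2.07 to 2.85), and under arsenite 2.04 ± 0.18, 4.11-fold (adjusted p = 1.45e-05). In size, the untreated difference stood at the 99.0 percentile of all probe sets, and that of Nucb1 at the 98.2. Arsenite gave a difference of 0.32 ± 0.18 in WT cells (adjusted p = 0.519) and -0.09 ± 0.18 in KO cells (adjusted p = 0.819). The groups of a genotype thus did not differ by the test, with means of 5.54 ± 0.31 and 5.86 ± 0.30 (SD) in WT and of 8.00 ± 0.13 and 7.90 ± 0.17 in KO cells, untreated first.

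**Figure D2:**
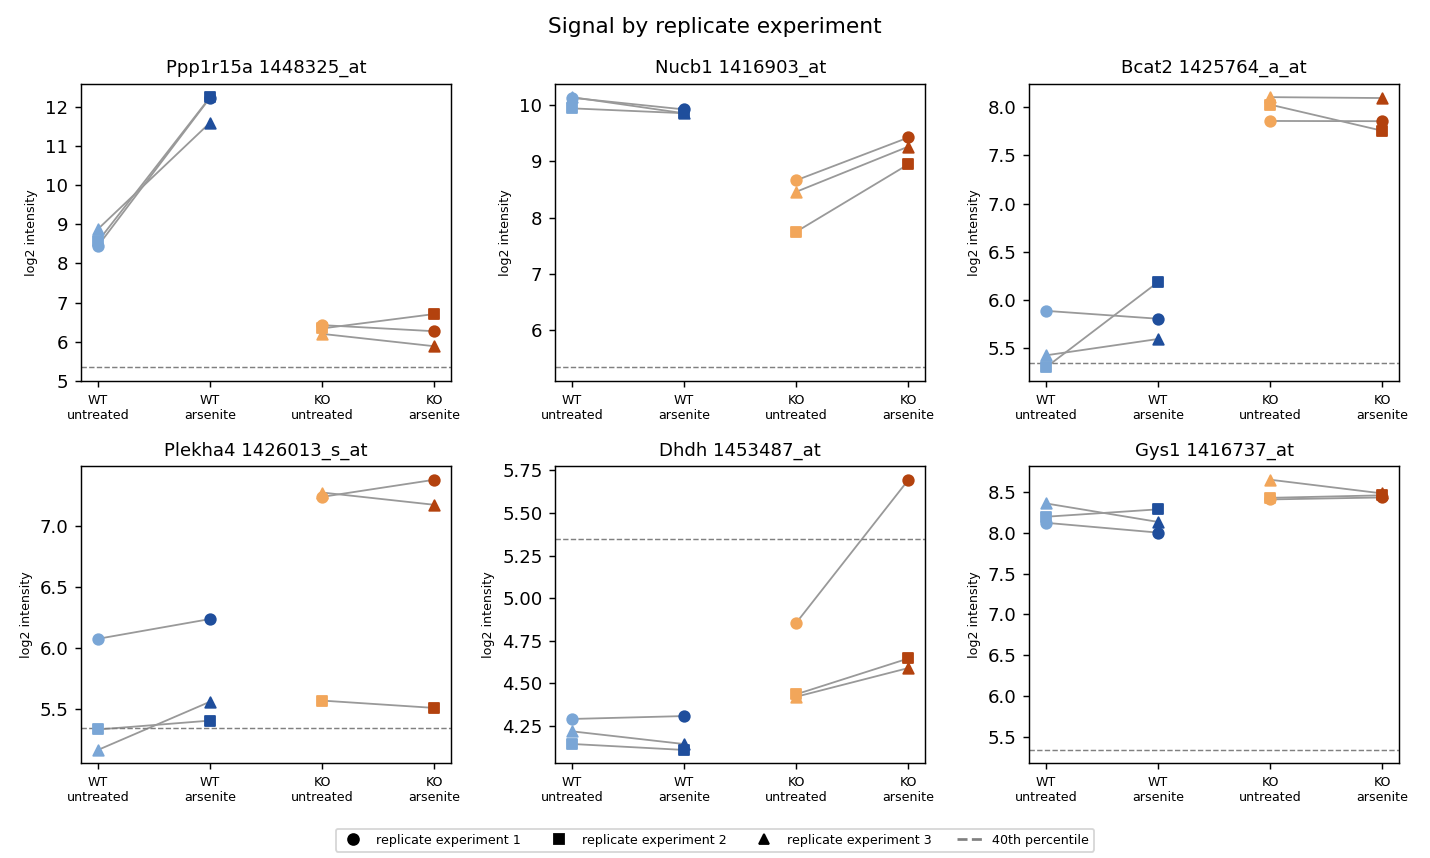
Log2 signal intensity of 6 probe sets in the 4 groups, with 1 symbol per replicate experiment and grey lines joining the untreated and arsenite arrays of an experiment within a genotype. Each panel has its own vertical axis, and the dashed line is the dim level of 5.34. All 3 lines of Nucb1 go up in KO cells and down in WT cells, and those of Ppp1r15a go up in WT cells by 2.72 to 3.79.

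Plekha4, whose first promoter entry shares sequence with Ppp1r15a, encodes a protein with a pleckstrin homology domain that binds phosphoinositides. Its second entry has a start site at 45529599, outside the shared stretch. Which start site the transcripts read here came from was not tested. It was read by 4 probe sets. The brightest, 1451907_a_at, gave 7.46, 7.58 and 7.22 in untreated WT cells and 7.46, 7.63 and 7.46 under arsenite. In KO cells it gave 7.48, 7.20 and 7.45 untreated and 7.71, 7.68 and 7.46 under arsenite, so that all 4 groups overlapped. The response of this probe set to arsenite was 0.10 ± 0.12 in WT cells (adjusted p = 0.836, 95% interval -0.17 to 0.36), beside 3.40 with an interval of 2.92 to 3.88 for Ppp1r15a on the same arrays. In KO cells it was 0.24 ± 0.12 (adjusted p = 0.290). Between untreated KO and WT cells this probe set differed by -0.04 ± 0.12 (adjusted p = 0.886, 95% interval -0.31 to 0.22), and the second, 1425866_a_at, by 0.10 ± 0.12 (adjusted p = 0.689).

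Another Plekha4 probe set went apart from those. The set 1426013_s_at, whose suffix marks probes that can match more than 1 transcript, gave 6.07, 5.33 and 5.16 in untreated WT cells and 6.24, 5.40 and 5.56 under arsenite. It gave 7.24, 5.57 and 7.28 in untreated KO cells and 7.38, 5.51 and 7.18 in KO cells under arsenite. Replicate 2 of the KO cells was thus at the level of the WT arrays in both conditions, and replicates 1 and 3 were above all WT arrays. The KO minus WT difference was 1.18 ± 0.54 untreated (adjusted p = 0.187) and 0.96 ± 0.54 under arsenite (adjusted p = 0.294). With the replicate experiment as a block the adjusted p was 0.0202 and 0.050, the latter just under the threshold before rounding. Without KO untreated replicate 2 the untreated difference was 1.74 (adjusted p = 0.0373), and without KO arsenite replicate 2 the other was 1.55 (adjusted p = 0.0494). The last set, 1425867_at, was below the dim level in every group, with differences of -0.03 to 0.19 over the 2 genotype and 2 arsenite comparisons. The probe sets of Plekha4 therefore disagreed, and no call for the gene holds across them.

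Dhdh, a dihydrodiol dehydrogenase, stayed below the dim level in all 4 group means. It read 4.29, 4.14 and 4.22 in untreated WT cells, 4.31, 4.11 and 4.14 in WT cells under arsenite, 4.86, 4.44 and 4.42 in untreated KO cells and 5.69, 4.65 and 4.59 in KO cells under arsenite. KO arrays were above the WT arrays of both conditions without overlap, with KO arsenite replicate 1 apart from the rest. The difference was 0.35 ± 0.24 untreated (adjusted p = 0.416) and 0.79 ± 0.24 under arsenite (adjusted p = 0.0435). By experiment the latter was 1.39, 0.54 and 0.45, and it was 0.43 (adjusted p = 0.0633) without KO arsenite replicate 1. Of the 12 fits that left out 1 array, 3 kept the call, and the call was also lost without any 1 of the 6 WT arrays and without KO untreated replicate 2 or 3. The untreated arrays are not part of this comparison. Where the call was lost without 1 of them, the difference stayed 0.79, with adjusted p from 0.0518 to 0.0612 by limma. With the replicate block the adjusted p was 0.00619.

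Gys1 and Ruvbl2, the second head-to-head pair, had slightly higher means in KO cells, which did not pass the test. Gys1 (1416737_at) gave 8.12, 8.19 and 8.36 in untreated WT, 8.00, 8.28 and 8.13 in WT arsenite, 8.41, 8.43 and 8.65 in untreated KO and 8.43, 8.46 and 8.48 in KO arsenite arrays. The genotypes did not overlap, and the difference was 0.27 ± 0.10 untreated (adjusted p = 0.114) and 0.32 ± 0.10 under arsenite (adjusted p = 0.060, or 0.0255 with the replicate block). Without WT arsenite replicate 2 the latter was 0.39, with adjusted p = 0.0448. Ruvbl2 gave 8.93, 9.42 and 9.26 in untreated WT, 8.78, 9.34 and 9.03 in WT arsenite, 9.15, 9.83 and 9.43 in untreated KO and 8.98, 9.76 and 9.40 in KO arsenite arrays. In each group replicate 2 was the highest of the 3 and replicate 1 the lowest. The Ruvbl2 difference was 0.27 ± 0.23 untreated (adjusted p = 0.539) and 0.33 ± 0.23 under arsenite (adjusted p = 0.408). With the replicate block it passed in both, at adjusted p = 0.0406 and 0.0135. The other Gys1 set, 1450196_s_at, lay below the dim level, with differences of -0.08 ± 0.13 and 0.04 ± 0.13.

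Snrnp70 did not differ by the main test in any of its 4 probe sets. The brightest, 1451104_a_at, gave 10.61, 10.99 and 10.83 in untreated WT, 10.61, 10.96 and 10.76 in WT arsenite, 10.79, 11.25 and 10.87 in untreated KO and 10.82, 11.05 and 10.66 in KO arsenite arrays. All groups overlapped, and the untreated difference was 0.16 ± 0.15 (adjusted p = 0.607, 95% interval -0.18 to 0.50). For 1429009_at the difference under arsenite was 0.31 ± 0.14 (adjusted p = 0.197, or 0.0339 with the block), and 0.45 (adjusted p = 0.0405) without KO arsenite replicate 2. The other 2 sets of the gene differed by -0.04 to 0.16 over the 2 genotype comparisons.

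Lin7b, a PDZ scaffold protein of cell junctions and synapses, and Hsd17b14, a steroid dehydrogenase of the short-chain family, did not pass in any comparison. Lin7b (1418683_at) gave 6.61, 6.41 and 6.40 in untreated WT, 6.45, 6.53 and 6.22 in WT arsenite, 6.03, 6.30 and 6.83 in untreated KO and 6.42, 6.77 and 6.67 in KO arsenite arrays, with a difference of -0.08 ± 0.18 untreated (adjusted p = 0.836). Its other 3 sets, 2 of them below the dim level, differed by -0.10 to 0.32 over the genotype comparisons. Hsd17b14 (1447678_at) gave 6.08, 6.42 and 6.10 in untreated WT, 6.42, 6.23 and 6.17 in WT arsenite, 6.39, 6.05 and 6.34 in untreated KO and 6.56, 6.55 and 6.36 in KO arsenite arrays. Its untreated difference was 0.06 ± 0.13 (adjusted p = 0.825, 95% interval -0.22 to 0.34). Tulp2, a relative of tubby known from testis, lay below the dim level on all 12 arrays, between 3.78 and 4.28, with an untreated difference of 0.00 ± 0.15 (adjusted p = 0.998).

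With the replicate experiment as a block, 4 of the 21 member probe sets passed between untreated KO and WT cells and 7 under arsenite. The array as a whole gave 23.9% and 24.7%, so the members' share was below it untreated and above it under arsenite. Added to the calls above were Ruvbl2 and Plekha4 1426013_s_at in both, and Gys1 1416737_at and Snrnp70 1429009_at under arsenite.

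In WT cells no member probe set passed for arsenite by limma, at the adjusted threshold or at an unadjusted p under 0.05, against 2.16% of all probe sets past the adjusted one. The 21 differences ran from -0.20 to 0.32. Treated and untreated arrays did not overlap for 1 member (Nucb1), against 20.3% of all probe sets. In KO cells the differences ran from -0.12 to 0.92, and Nucb1 alone passed. There the arrays did not overlap for 3 members, against 23.8% of all. None passed for the difference of the responses, in which 8 probe sets of the array (0.0178%) did, Ppp1r15a among them at -3.43 ± 0.31 (adjusted p = 0.007). One member, Nucb1, had an unadjusted p under 0.05 there.

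**Figure D3:**
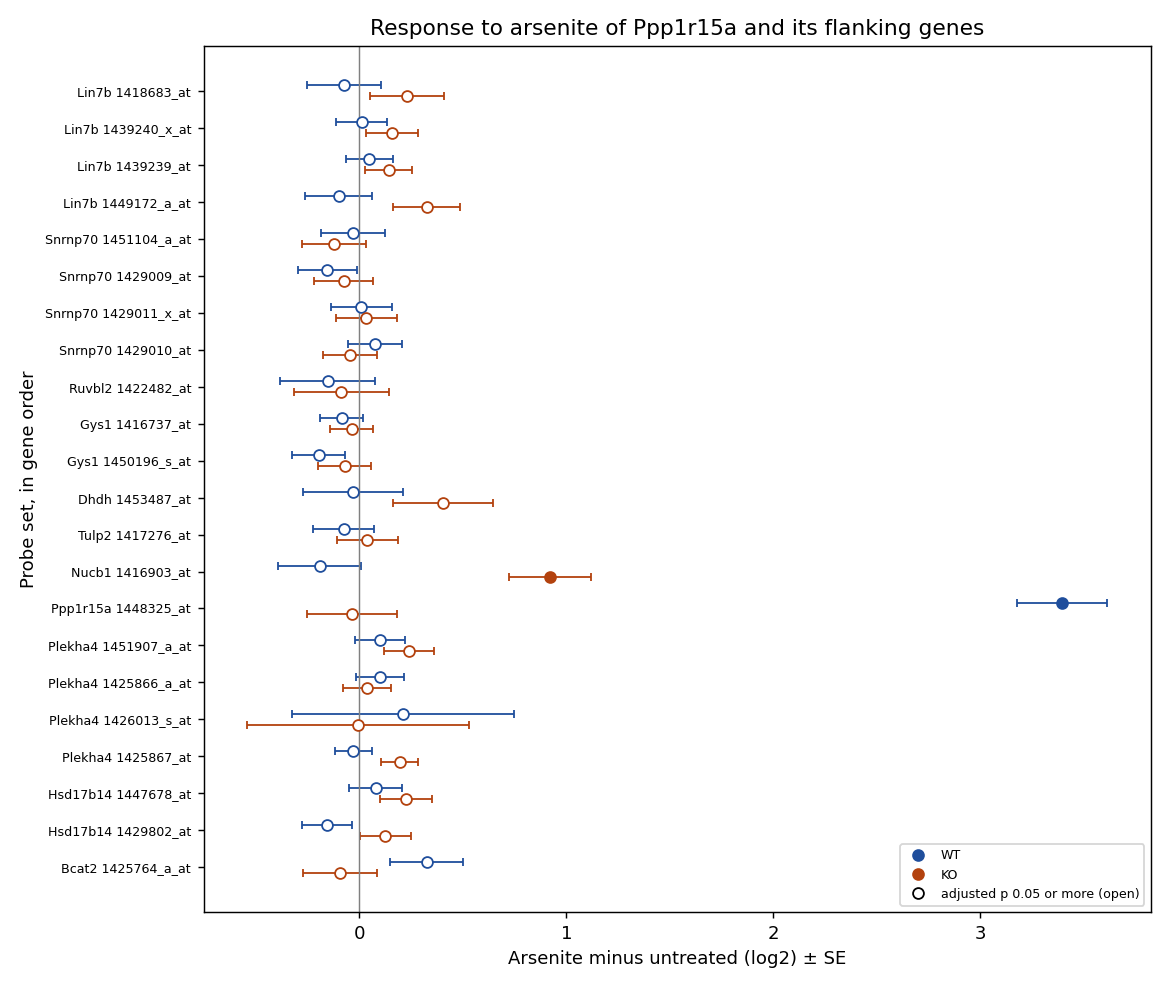
Arsenite minus untreated difference (log2, with bars of 1 SE) of Ppp1r15a and the 21 flanking probe sets in WT and KO cells, in gene order. Filled points passed the adjusted threshold of 0.05. Ppp1r15a in WT cells (3.40) and Nucb1 in KO cells (0.92) are the filled points, and the other WT and KO differences stay between -0.20 and 0.41.

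The next question was how far along the chromosome the differences went. Of the 40 protein-coding genes on each side of Ppp1r15a, 70 were not members, and 65 of these were measured. Between untreated KO and WT cells 6 of the 65 were higher and 0 lower by limma (9.23%), against 19.0% of the 20753 genes, each read by its brightest probe set. By direction, 1920 of all genes were higher and 2026 lower. Of all measured protein-coding genes of chromosome 7, dim ones included, 189 were higher and 55 lower. At an unadjusted p under 0.05, 12 were higher and 4 lower. Nosip, an E3 ubiquitin ligase, was higher in KO cells by 1.79 ± 0.19 (adjusted p = 6.01e-05). Tead2, a transcription factor that pairs with YAP, was higher by 1.46 ± 0.19 (adjusted p = 0.000345), and Rcn3, a calcium-binding protein of the endoplasmic reticulum, by 1.37 ± 0.32 (adjusted p = 0.0117). The cation channel Trpm4 was higher by 0.71 ± 0.21 (adjusted p = 0.0418). Kdelr1, a receptor that returns proteins to the endoplasmic reticulum, followed at 0.62 ± 0.15 (adjusted p = 0.016) and Bcl2l12 at 0.38 ± 0.10 (adjusted p = 0.026). Under arsenite 11 were higher and 0 lower (16.9%, against 20.0% of all genes), and 17 and 1 at an unadjusted p under 0.05. Without WT arsenite replicate 2 the number of neighbours called was 7. Over all genes 1989 were higher and 2157 lower under arsenite, and over those of chromosome 7 the counts were 250 and 52. For arsenite in WT cells 0 neighbours passed, against 2.13% of genes, and in KO cells 1 passed, against 7.50%. For the difference of the responses 0 passed, against 0.0289%. At an unadjusted p under 0.05 the limma counts were 2 for arsenite in WT cells and 1 for the difference.

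The calls were not a continuous block around Ppp1r15a. Bax, the apoptosis regulator 4 places from Ppp1r15a, differed by 0.04 ± 0.18 (adjusted p = 0.927). Of the 8 measured genes within 5 places of Ppp1r15a, 2 passed untreated (Nucb1 and Bcat2) and 3 under arsenite. Of the 10 genes at 6 to 10 places, members included, 0 passed by limma in either comparison, and 2 untreated and 1 under arsenite had an unadjusted p under 0.05. At 11 to 20 places 2 of 20 passed in both comparisons, and at 21 to 40 places 4 of 37 untreated and 9 of 37 under arsenite. Adjacent genes with the same call formed 1 run untreated, of 2 genes (Nosip and Rcn3), and under arsenite also 1 of 3 genes, from Prmt1 to Irf3. The number of neighbours called untreated went from 2 without WT untreated replicate 2 and 3 without KO untreated replicate 3 to 7 without KO untreated replicate 2. With the replicate block it was 16, and 23.9% of all probe sets passed. That share is by probe set and not by gene. Without the block the untreated shares were 16.0% by probe set and 19.0% by gene.

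**Figure D4:**
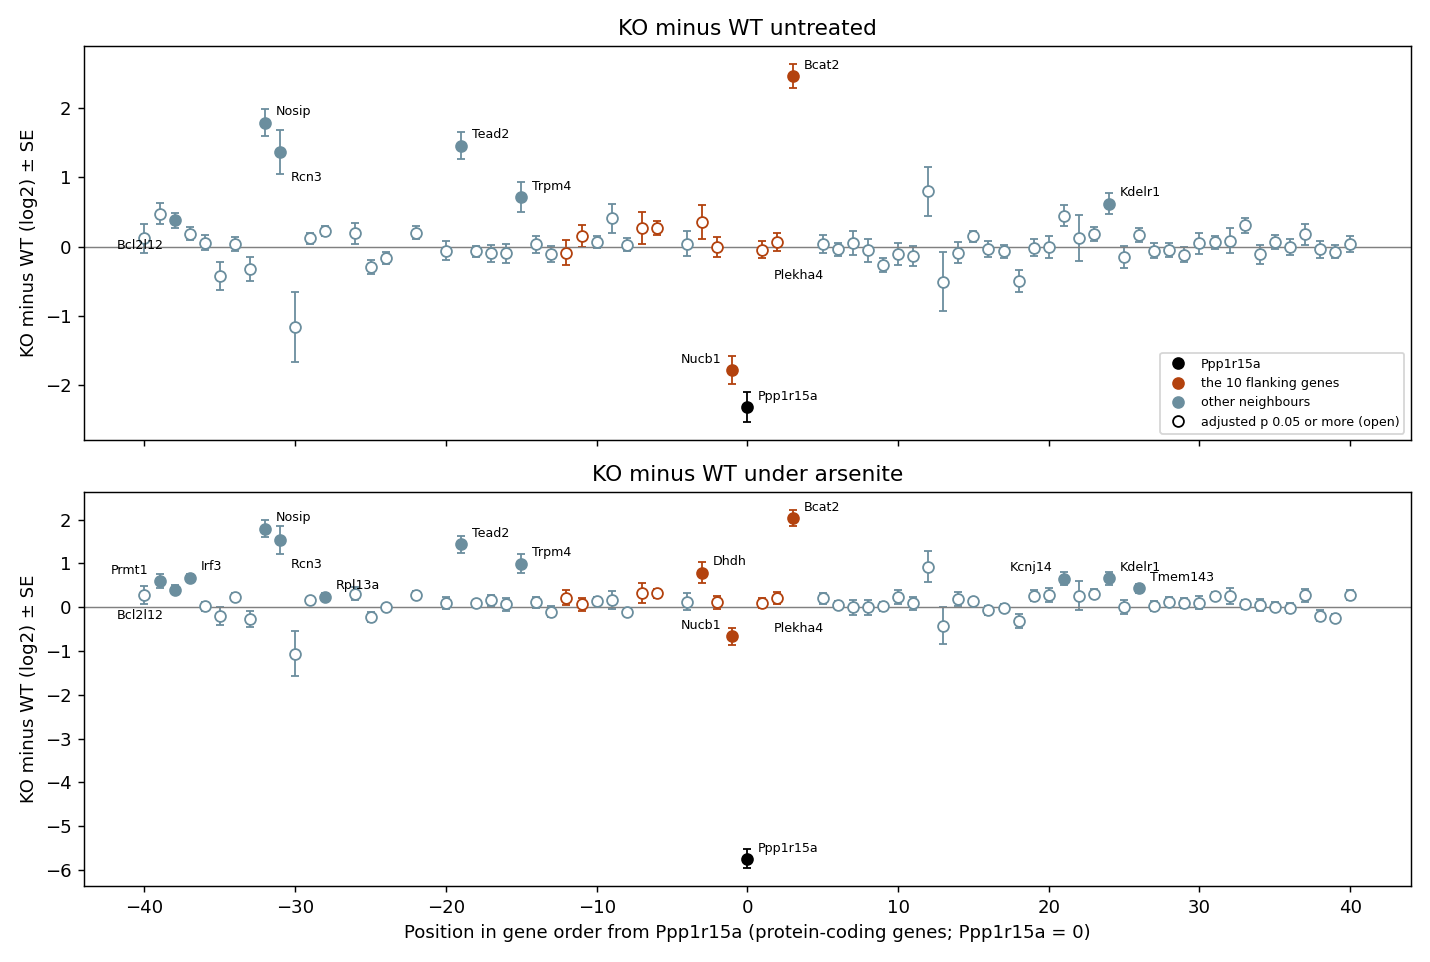
KO minus WT difference (log2, with bars of 1 SE) of 1 probe set per gene against position in gene order from Ppp1r15a at 0, untreated above and under arsenite below. Filled points passed the adjusted threshold of 0.05 and orange points are flanking genes. Among the flanking genes Bcat2 (2.46) and Nucb1 (-1.78) lie far from 0, as do the neighbours Nosip (1.79), Tead2 (1.46) and Rcn3 (1.37).

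Relatives of the members from outside the neighbours above were read as a comparison. Relatives on chromosome 7 were not set apart, so the list is not a comparison with other chromosomes alone. Of 26 listed, 23 were measured, and untreated KO cells had 4 higher and 0 lower than WT cells by limma (17.4%, against 19.0% of all genes), or 8 and 2 at an unadjusted p under 0.05. They were Plekha2 (1.42 ± 0.12, adjusted p = 9.52e-06), Plekha1 (0.90 ± 0.18, adjusted p = 0.00461), Nucb2 (0.53 ± 0.10, adjusted p = 0.00255) and Hsd17b12 (0.45 ± 0.08, adjusted p = 0.00262). Nucb2, the paralogue of Nucb1, was therefore higher where Nucb1 was lower. Bcat1, the cytosolic form of the aminotransferase, differed by 0.92 ± 0.42 (adjusted p = 0.184). Under arsenite 4 were higher and 2 lower (26.1%, against 20.0% of all genes), the latter being Lin7c (-0.94 ± 0.24, adjusted p = 0.0201) and Snrpc, a U1 protein (-0.38 ± 0.11, adjusted p = 0.0305). With the replicate block 10 of 23 passed untreated, and 23.9% of all probe sets, a share by probe set and not by gene. The untreated count was 7 without KO arsenite replicate 2, and the count under arsenite was 3 without WT arsenite replicate 2.

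Likeness was measured as the mean absolute difference of the 4 group means, each profile centred on its own mean. By it the genes nearest to Bcat2 were Prr5 (0.027), Acot1 (0.060) and Foxp2 (0.072), against a median of 1.12 over all genes. Those nearest to Nucb1 were Lmod1 (0.10), Lrrc4c (0.12) and Arhgef39 (0.12), against a median of 0.62. Over 4 groups of 3 arrays this is a description, and none of the 6 lies on chromosome 7.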

How the data were processed

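RNA of 12 arrays was read, 3 a group. The authors deposited log2 intensities made with RMA, a method that corrects background, equalises the distributions of the arrays and combines the probes of a set. The name of the method, without a version, is from the submitters' processing notes. Beside them the full table holds the authors' p-values, per the file headers. In the authors' deposited table, 2 member probe sets had both a change above 0.5 and an unadjusted p under 0.05 between untreated KO and WT cells, against 12.8% of all. Array groups follow the array codes of the full table, whose means equalled the authors' named mean columns. A shorter deposited table of 26382 probe sets carries labels of which 10 of 12 disagree, and it served only for an alternative grouping.

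Limma 3.58.1 in R 4.3.3 (statmod 1.5.0) fitted the 4 groups at once to all 45037 probe sets other than 64 controls, with 8 residual degrees of freedom and no block. Moderated tests were two-sided, with Benjamini-Hochberg adjustment over all probe sets within each of 5 comparisons and a threshold of 0.05. The fit was tested on simulated data, but the outcome is not given here and no result rests on it. A gene outside the members was read by its probe set with the highest mean. Gene order and names came from RefSeq (GRCm38.p6). The number of arrays limits the precision.

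Replicate numbers mark shared experiments, per the design text of the series. Same-numbered arrays of different groups correlated at 0.228 to 0.671 after group means were removed (18 pairs), and others at -0.501 to -0.0687 (36 pairs). Values with the number as a block are therefore given where they change a call.

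Genes named were all members and Ppp1r15a, the neighbours and relatives past the threshold with the largest differences (up to 5 and 3 a direction, without overlap of the arrays for neighbours), relatives of called members, the 3 genes nearest in profile to Bcat2 and Nucb1, and the ends of runs. Bcl2l12 and Hsd17b12, named beside them, and Bax were chosen after their values were seen. The members, lists and rules were chosen with earlier results of these data known.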

Additional observations from a re-analysis of the deposited data

Results flagged for a closer look

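Nucb1 was singled out because its response to arsenite went down in all 3 replicate experiments of WT cells and up in all 3 of KO cells. The difference of the responses, KO minus WT, was 1.11 ± 0.28 on the log2 scale, with an adjusted p of 0.380 from limma and of 0.087 with the replicate block, so the difference did not pass the threshold. Groups of 3 arrays were not tested for outlying samples.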

How the results depend on the processing

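Each member value was recomputed under 23 alternatives, 12 of which left out 1 array. Of 2304 such values, 2253 kept their direction where called and their side of the threshold, 29 no longer passed, 20 newly passed and 2 reversed. The reversed ones came with the arrays grouped by the labels of the shorter table, where Dhdh under arsenite was -0.22 and the arsenite response of Nucb1 in KO cells -0.27. With those labels 0 probe sets or genes passed for members, neighbours and relatives in both genotype comparisons, and 0 members passed for arsenite in KO cells. The labels contradict the array codes, and the cause was not tested. Under the other 22 alternatives, each at its own threshold, Bcat2 passed in 22 of 22 in both comparisons (2.34 to 2.63 untreated, 1.91 to 2.20 under arsenite) and Nucb1 in 22 of 22 untreated (-1.96 to -1.51). Nucb1 under arsenite passed in 12 of 22 (-0.77 to -0.53, highest adjusted p 0.131), its response in KO cells in 19 of 22 (0.65 to 1.11, highest adjusted p 0.118), and Dhdh under arsenite in 9 of 21 (0.43 to 0.98, highest adjusted p 0.125).

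With the replicate block, calls between untreated KO and WT cells numbered 4 for members, 16 for neighbours and 10 for relatives, and 7 members passed under arsenite. With array quality weights, chosen after seeing the data, 8 relatives passed untreated, and with weights and block the counts were 5 members, 16 neighbours and 10 relatives untreated and 7 members under arsenite. At an adjusted p under 0.01, 1 member passed under arsenite and 0 for arsenite in KO cells, 2 neighbours passed untreated and 5 under arsenite, and 3 relatives passed under arsenite. The untreated count of relatives was 7 with 1 probe set per gene, without dim probe sets and with the arrays of the compared groups alone. Those arrays alone gave 0 members for arsenite in KO cells, and no separate value for the difference of responses, which uses all arrays.

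Leaving out 1 array at a time gave 2 to 3 members untreated, 1 to 4 under arsenite, 0 to 1 for arsenite in KO cells, and 0 for arsenite in WT cells and for the difference of responses. Neighbours numbered 2 to 7 untreated and 7 to 11 under arsenite, and relatives 4 to 7 and 3 to 8. Outside the calls named with the results, the replicate block changed no member's call. Probe sets below the dim level limit what can be said of Dhdh and Tulp2.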

Other observations

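Genes above the dim level were also summed by whole chromosome, so that chromosome 7 here includes the window around Ppp1r15a, its members and Ppp1r15a. On chromosome 7, 188 of 1104 genes were higher and 56 lower in untreated KO than WT cells, so that 77.0% of its calls were higher, with a median difference of 0.08. Under arsenite 245 were higher and 54 lower (81.9%), with a median of 0.16. The protein-coding genes among those of chromosome 7, without Ppp1r15a, were divided by gene order into 8 parts of nearly equal size. Each part had a positive median, from 0.03 to 0.16 untreated and from 0.09 to 0.24 under arsenite. The part in which Ppp1r15a lies stood at 0.07 and 0.16. On the other 19 chromosomes medians ran from -0.30 on chromosome 10 to 0.46 on chromosome 14 untreated, and from 9.54% to 89.5% of their calls were higher. Under arsenite the medians ran from -0.29 to 0.39 and the shares from 9.42% to 89.1%. Chromosome 7 was thus within the range of the others, and these counts carry no test.

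Irf3, an interferon regulatory factor 37 places from Ppp1r15a, was the neighbour past the threshold for arsenite in KO cells, at 0.38 ± 0.09 (adjusted p = 0.0304 by limma).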
